A study of Mus musculus with 26 samples.

Results

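RNA sequencing measured 8 genes of the MiT/TFE and folliculin system in antigen-presenting cells, chosen by gene symbol among 23420 listed symbols and followed through all 10 groups of the series. They were the transcription factors Tfeb, Tfe3, Mitf and Tfec, the folliculin complex genes Flcn, Fnip1 and Fnip2, and Gpnmb, a glycoprotein gene known as a target of these factors. All 8 passed the filter on low values and were among the 13311 genes tested. The mice were labelled mTORΔAPC, with mTOR lacking in antigen-presenting cells (KO), or were wild-type littermates (WT). The labels give no allele, no promoter for the deletion, no age and no sex, and do not say whether a library came from 1 animal or from a pool. CD8a dendritic cells (DCs) and CD11b DCs were sorted from spleen at steady state, with 2 libraries per genotype each. CD11b+ DCs and alveolar macrophages were sorted from lung at steady state, with 3 libraries per genotype each. Inflammatory DCs, also with 3 libraries per genotype, came from lungs of mice of both genotypes that had received house dust mite extract through the nose, 25 µL at 1 mg/mL, up to day 17 in the sample labels or day 18 in the protocol. No untreated inflammatory DCs and no allergen-treated steady-state cells were among the groups, so cell type and treatment cannot be told apart for these cells.

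MiT/TFE proteins are related helix-loop-helix factors that switch on genes of lysosomes and autophagy. While the kinase complex mTORC1 is active on the lysosome surface it phosphorylates TFEB and TFE3, which are then held in the cytoplasm. Folliculin, bound to FNIP1 or FNIP2, acts on the Rag GTPases that bring these factors to mTORC1, and loss of folliculin is known to release TFE3 into the nucleus. The messenger RNA levels given here measure neither phosphorylation nor location of the proteins.

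All 8 are protein-coding genes in GENCODE M21 on mm10 (GRCm38), and the deposited table has 1 value per gene. Tfeb lies on chromosome 17 (47737030 to 47792419, plus strand), Tfe3 on X (7762560 to 7775202, plus), Mitf on 6 (97807052 to 98021349, plus) and Tfec also on 6 (16833373 to 16898441, minus). Flcn (59791408 to 59810016, minus) and Fnip1 (54438199 to 54518235, plus) lie on chromosome 11, Fnip2 on 3 (79455974 to 79567796, minus) and Gpnmb on 6 (49036546 to 49070929, plus).

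Start-site sequences of Fnip1 and Fnip2 are shown first because the pair were the complex genes called higher in KO in both steady-state lung populations. Neither was called in inflammatory DCs. Windows of 300 bases (250 before and 50 after each RefSeq start, GRCm38.p6) were found for all 8 genes and were searched on both strands. The core E-box CACGTG, the letters that MiT/TFE factors are known to bind, occurred in 7.15% of 32851 windows and 8.09% of 27025 genes. Among the 8 genes it occurred in 1, Fnip1, with its first base at position -75 from the RefSeq start. The longer form TCACGTG, which contains that core, occurred in 3.77% of windows (4.29% of genes) and again in Fnip1 at the same place. TCATGTG, a form known as the M-box, occurred in 3.77% of windows (4.31% of genes) and in none of the 8 genes. The longest run of letters shared by a Fnip1 and a Fnip2 window, on either strand, was the palindrome GTCATATGAC, so its presence in both follows from how it was chosen. It occurred in 0.0426% of windows, those of 14 genes, among them Fnip1 (first base at position 17 after the start) and Fnip2 (position -106). Capitals mark the match in each sequence, which is given on the gene's own strand.
Fnip1 E-box, chr11:54438094-54438119, plus strand: agtttgctgcCACGTGatacggctcg
Fnip1 palindrome, chr11:54438185-54438214, plus strand: actaatttctGTCATATGACtgaggcgccc
Fnip2 palindrome, chr3:79567766-79567795, minus strand: ggccggctccGTCATATGACcggccggcgg
In the GENCODE M21 annotation the Fnip1 palindrome begins 4 bases upstream of the gene's 5′ end, and the Fnip2 palindrome begins 11 bases inside it. These matches describe letters in the reference and are no evidence of binding.

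Libraries held 7.37 to 14.1 M recovered reads, with 12992 to 14407 genes above 0. Mtor (chromosome 4, positions 148448611 to 148557683, protein coding) was lower in each KO library than in any WT library of the same cell type. Its normalized count (reads divided by the library's size factor) in KO was 40.0 and 68.5 in CD8a DCs of spleen, 63.0 and 82.6 in CD11b DCs of spleen, 71.7, 91.4 and 104.1 in alveolar macrophages, 297.5, 316.0 and 169.3 in lung CD11b DCs, and 196.3, 236.1 and 217.5 in inflammatory DCs. WT libraries held 332.2 to 475.6 in the lung steady-state cells and 336.2 to 403.6 in inflammatory DCs. The fall was called in 4 cell types and missed the threshold in inflammatory DCs (log2 difference -0.74 ± 0.22, adjusted p = 0.0668). The deleted exons are not given in the labels, so this count may cover exons outside the deletion. Y-linked genes summed to at most 2.3 in all 10 steady-state WT libraries and to 659.5 or more in all KO libraries of spleen and alveolar macrophages, so that sex and genotype cannot be told apart there. In lung CD11b DCs 1 of 3 KO libraries, replicate 1, held Y-linked reads (1317.7), and all inflammatory DC libraries did (1419.8 to 2523 in WT). Xist, read as a marker of female cells, was also high in several of these libraries. It was 3619.7 in CD8a and 3092.4 in CD11b KO replicate 1 of spleen, and 1450.4 in lung CD11b KO replicate 1. Alveolar macrophage KO libraries held 571.9 to 2293.1 and inflammatory WT replicate 1 held 717.5, against at most 3.8 in inflammatory KO libraries. Such libraries held reads of both sexes, so sex there was mixed. The Y-linked sums of KO replicates 1 and 2 were alike in the 2 spleen DC types (977.3 and 3049.2 in CD8a DCs, 932.0 and 3295.1 in CD11b DCs), and the labels do not say whether these types were sorted from the same mice. The tests took the libraries as unrelated. The labelled cell types were checked against defining markers. For spleen CD11b DCs only a list sum is given. Their 8 CD11b-type DC genes summed to 22647.1 to 23310.2 in WT. This was above WT spleen CD8a DCs (5753.1 to 6464.2) but below WT alveolar macrophages (28275.3 to 28655.2). Xcr1, Clec9a and Cd8a marked spleen CD8a DCs at 4545.3 or more in every library of that cell type. In WT lung CD11b DCs Mgl2 lay between 22740.5 and 24794.4 and Itgam (CD11b) between 5379.4 and 5931.3. Siglec5 (now Siglecf) and Marco marked alveolar macrophages at 2444.2 or more in each of their libraries. Libraries labelled inflammatory DCs were low in the DC markers Flt3 (104.0 to 170.1 in WT, 20.1 to 36.4 in KO) and Zbtb46 (88.9 to 111.1 in WT, 26.4 to 58.4 in KO). The sum of the 8-gene DC list there, 52580.1 to 59862.6 in WT and 61193.7 to 85946.5 in KO, was above that of WT alveolar macrophages (13479.8 to 14085.9) and rested mostly on H2-Aa and Itgax, which macrophages can also express. In KO against WT 2 of these 8 genes were higher and 5 lower in inflammatory DCs, where 1.45% of all genes were higher and 1.92% lower. WT inflammatory DC libraries held more Chi3l3, a macrophage chitinase-like gene on the alveolar macrophage list, than WT alveolar macrophages (784486.7 to 1135997.0 against 267927.9 to 277961.5). Chi3l3 made up most of that list's sum in both (804652.2 to 1171511.7 against 307163.7 to 316899.7). WT levels of the other list genes in inflammatory DCs are not given here, so this 1 gene does not settle what the cells were.

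Between WT cell types Tfeb, Tfe3, Flcn and Fnip1 varied within a few fold, whereas Mitf, Tfec and Gpnmb were low in steady-state DCs and high in alveolar macrophages and inflammatory DCs. Of the WT libraries, those of inflammatory DCs alone held Y-linked reads above a trace. In WT comparisons with inflammatory DCs sex therefore cannot be told apart from cell type and treatment. All 8 genes differed among the 5 WT cell types in limma's moderated F test, as did 77.9% of all genes tested. In single pairs of WT cell types, all genes were called at 23.0% for spleen CD11b against spleen CD8a DCs, 34.9% for lung against spleen CD11b DCs, 36.9% for lung CD11b against spleen CD8a DCs and 34.9% for inflammatory DCs against alveolar macrophages. Alveolar macrophages differed from spleen CD8a, spleen CD11b and lung CD11b DCs in 55.7%, 55.9% and 51.2% of genes, and inflammatory DCs in 54.0%, 55.2% and 47.5%, so that a called pair was common. Per kilobase of exon (GENCODE M21 union length), the order of the genes changed with the cell. In WT spleen CD8a DCs the most abundant was Flcn at 103 ± 9.7 normalized counts per kb (SD, n = 2) and the least abundant was Gpnmb at 0.311. In WT inflammatory DCs Gpnmb stood first at 3083 per kb, above Flcn at 318 ± 34.5 (SD, n = 3). The plot of WT levels per exon length shows this change of order.

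**Figure D1:**
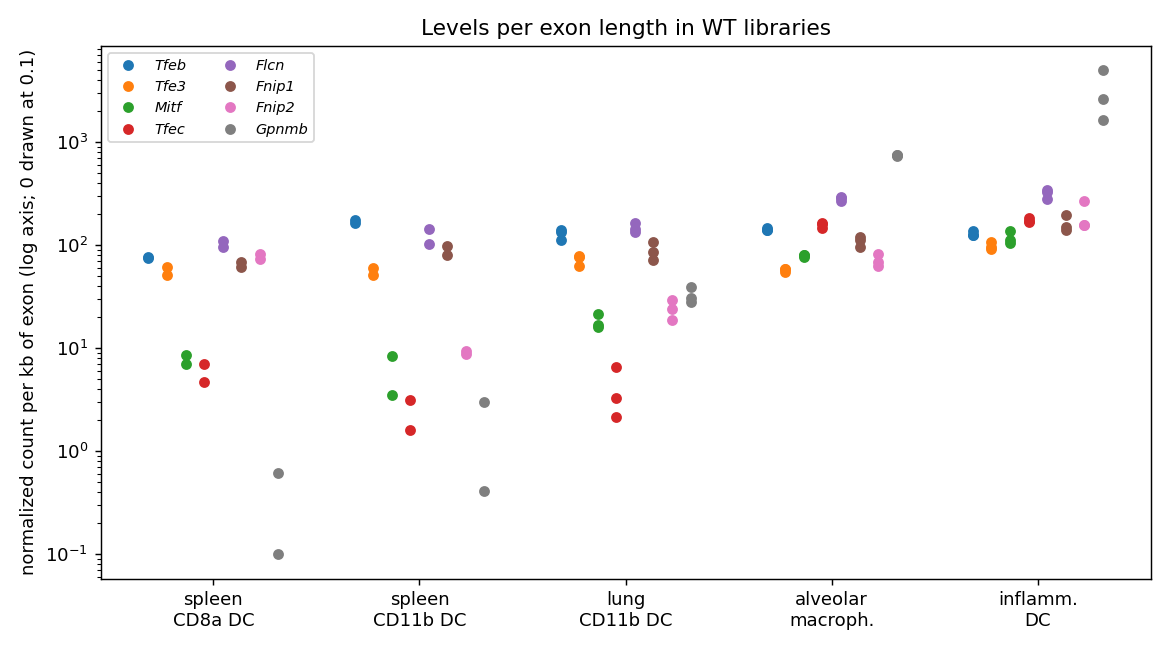
Normalized count per kilobase of exon (log axis, 0 drawn at 0.1) of the 8 genes in WT libraries of 5 cell types; points are libraries. Tfeb, Tfe3, Flcn and Fnip1 stay within a narrow band, while Mitf, Tfec and Gpnmb are low in DCs of spleen and lung and high in alveolar macrophages and inflammatory DCs.

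Among the factors, Tfeb, a main regulator of lysosome genes, had a narrow range, although 6 of 10 pairs of WT cell types were called. Its WT mean ran from 434 ± 6.3 (SD, n = 2) in spleen CD8a DCs to 966 ± 47.0 (SD, n = 2) in spleen CD11b DCs. The first step, from spleen CD8a to inflammatory DCs, was called (0.74 ± 0.15, adjusted p = 0.000175). No later step, through lung CD11b DCs and alveolar macrophages to spleen CD11b DCs, was called. Spleen CD11b DCs were nonetheless called above both lung CD11b DCs and inflammatory DCs. Tfe3, its close relative on the X chromosome, ran from 511 ± 57.4 (SD, n = 2) in spleen CD11b DCs to 905 ± 75.3 (SD, n = 3) in inflammatory DCs. For Tfe3 the spleen DCs and alveolar macrophages could not be ordered, lung CD11b DCs were above alveolar macrophages (adjusted p = 0.0267), and inflammatory DCs were above lung CD11b DCs (adjusted p = 0.00573).

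Mitf and Tfec separated the cell types more widely. Mitf, the family member known for pigment cells, osteoclasts and mast cells, held 22.0 to 52.7 in WT spleen DCs, 98.6 to 133.8 in lung CD11b DCs, 472.4 to 498.0 in alveolar macrophages and 642.4 to 845.6 in inflammatory DCs. The steps from spleen CD8a to lung CD11b DCs (log2 1.20 ± 0.27, adjusted p = 0.00113) and from there to alveolar macrophages (2.12 ± 0.24, adjusted p = 9.34e-08) were called, and the last step was not (0.57 ± 0.24, adjusted p = 0.0697). Tfec, the member whose expression is known to be largely restricted to macrophages, held 9.0 to 39.5 in all WT DC libraries of spleen and lung. It held 820.0 to 915.1 in alveolar macrophages and 933.0 to 1021.6 in inflammatory DCs. The 3 steady-state DC types could not be ordered among themselves, and neither could the other two cell types, with a gap of 4.71 ± 0.46 on the log2 scale between the sets (adjusted p = 5.58e-09).

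In the folliculin complex, Flcn, the subunit mutated in Birt-Hogg-Dubé syndrome, rose by 0.94 ± 0.13 on the log2 scale from lung CD11b DCs (637 ± 64.0) to alveolar macrophages (1215 ± 64.1, SD, n = 3 each, adjusted p = 2.24e-06). No other neighbours in its order were called. Fnip1, 1 of 2 alternative partners of folliculin, had the fewest called pairs of WT cell types, 5 of 10, and ran from 463 ± 32.0 in spleen CD8a DCs (SD, n = 2) to 1158 ± 213.6 in inflammatory DCs (SD, n = 3), with 1 called step, the last (0.57 ± 0.19, adjusted p = 0.0217). Fnip2, the other partner, had an order of its own. It was lowest in spleen CD11b DCs (73.6 and 77.9), followed by lung CD11b DCs (156.4 to 246.4), and alveolar macrophages (522.1 to 686.3) did not differ from spleen CD8a DCs (620.1 and 681.2; adjusted p = 0.678). Between the 2 spleen DC types neither Flcn (adjusted p = 0.357) nor Fnip1 (adjusted p = 0.173) was called. Gpnmb, a membrane glycoprotein of lysosomes and phagosomes in macrophages, was called in all 10 pairs of WT cell types. It held 0.0 and 4.1 in CD8a DCs of spleen, 2.7 and 19.5 in CD11b DCs of spleen, 183.1 to 253.8 in lung CD11b DCs, 4766.1 to 4896.5 in alveolar macrophages and 10614.3 to 32445.6 in inflammatory DCs. The call between the spleen DCs (1.95 ± 0.67, adjusted p = 0.038) rested on 4 and 26 reads, and these libraries overlapped, so that step of the order is weak.

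**Figure D2:**
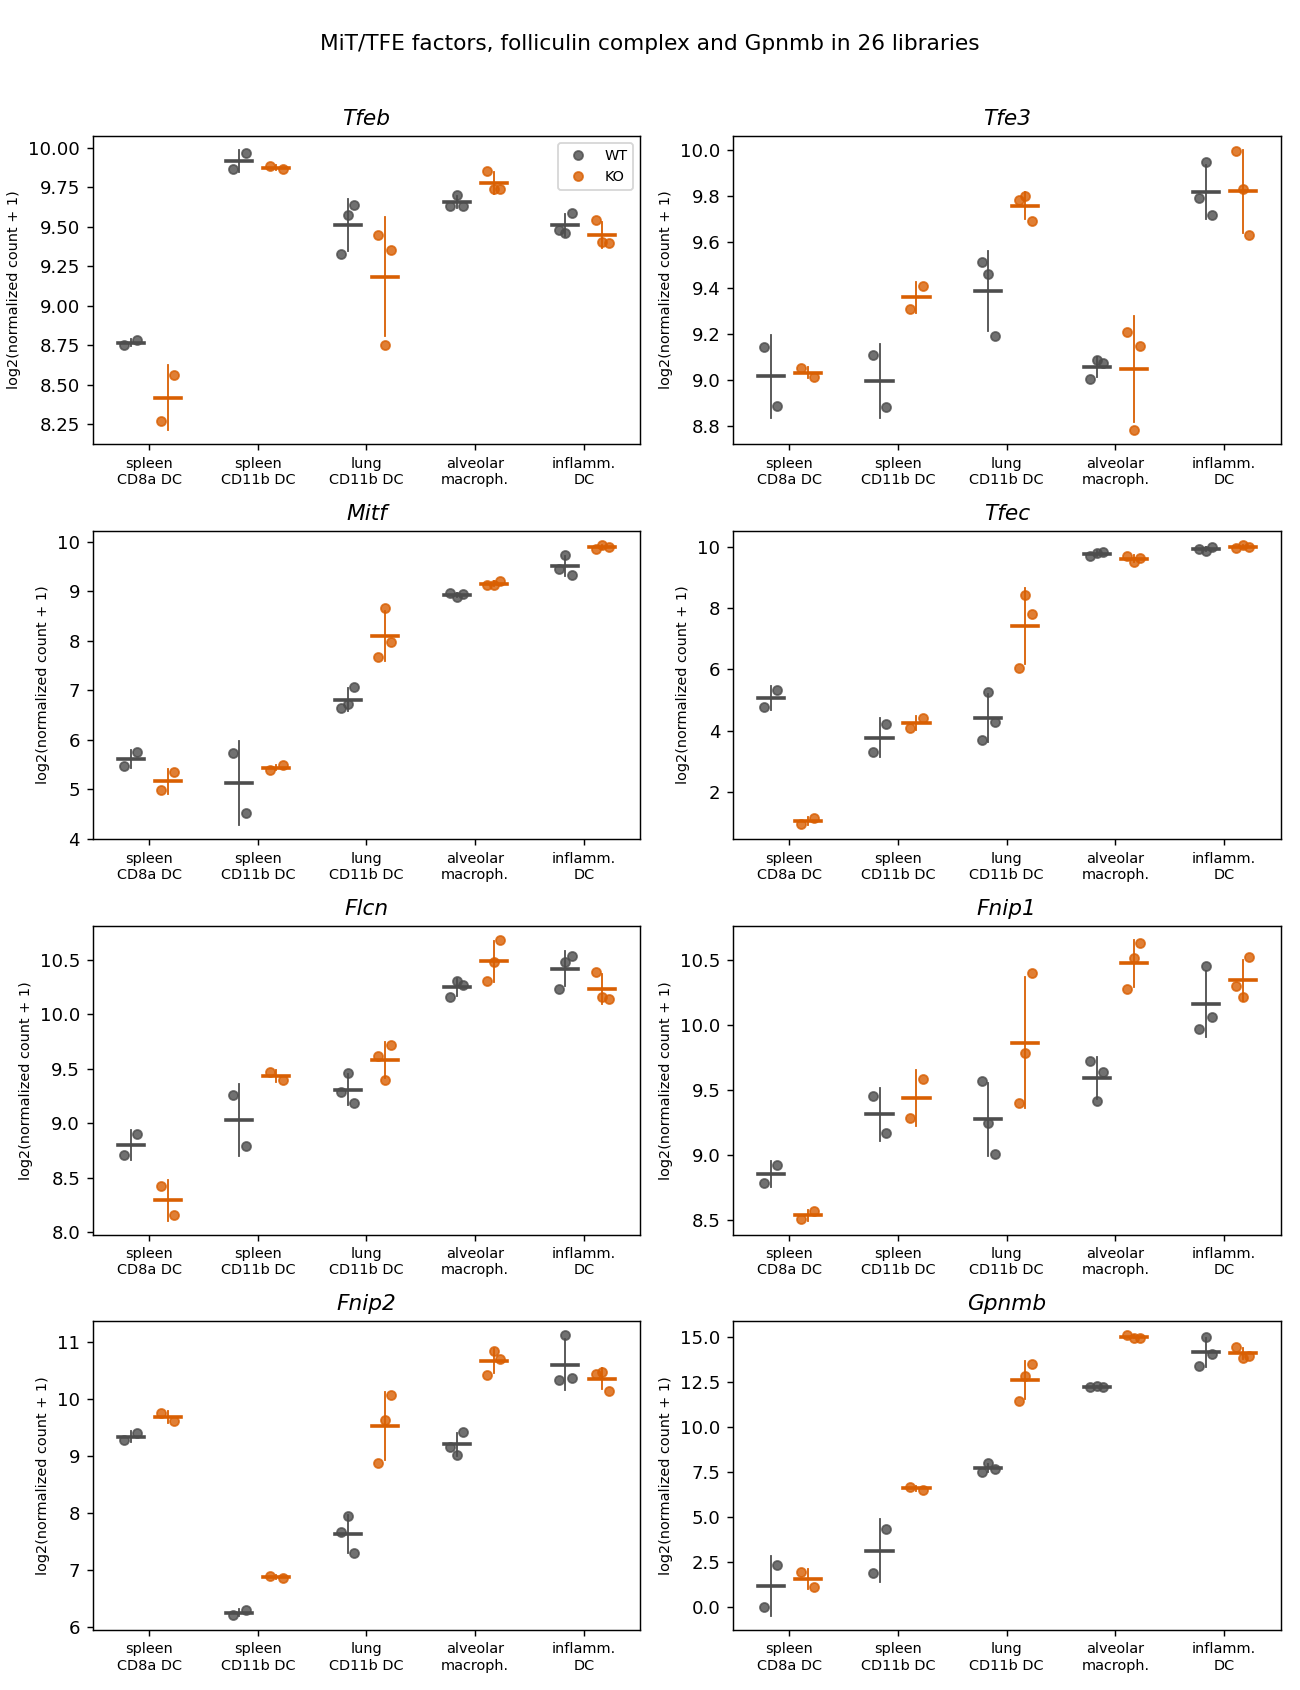
Each library's log2(normalized count + 1) for the 8 genes, by cell type, in WT (grey) and KO (orange); short bars are means and vertical lines SDs, with 2 libraries per group in spleen and 3 in lung. Gpnmb, Fnip2, Mitf and Tfec stand apart between genotypes in lung CD11b DCs, and Gpnmb, Fnip1 and Fnip2 in alveolar macrophages.

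In KO against WT, lung CD11b DCs held the most called genes of this system. There 6 of 8 were higher in KO (Tfe3, Mitf, Tfec, Fnip1, Fnip2 and Gpnmb) and none was lower, against 26.1% of all genes called, 12.0% higher and 14.0% lower. In alveolar macrophages 3 of 8 were higher (Fnip1, Fnip2 and Gpnmb), against 16.9% called, 10.5% higher and 6.39% lower. Among spleen CD11b DCs 1 of 8 was higher (Gpnmb), where 1.52% of all genes were called, 1.28% higher and 0.233% lower. Spleen CD8a DCs had 1 of 8 lower (Tfec), where 5.13% were called, 1.50% higher and 3.63% lower. In inflammatory DCs 0 of 8 were called by limma, with 3.37% of all genes called, 1.45% higher and 1.92% lower. There 0 of 8 also had an unadjusted p under 0.05 in limma, and 0 were called by edgeR and by DESeq2. With the 5 cell types weighted equally, the mean KO effect was called higher for 4 of 8 genes (Mitf, Fnip1, Fnip2 and Gpnmb), with 17.7% of all genes called, 9.53% higher and 8.17% lower. The median log2 difference of the 8 genes was 0.94 in lung CD11b DCs (-0.05 over all genes), 0.23 in alveolar macrophages (0.02), 0.39 in spleen CD11b DCs (0.00), -0.33 in spleen CD8a DCs (0.00) and -0.03 in inflammatory DCs (-0.02). These are bulk RNA levels of sorted cells, in which fewer cells of a type and less RNA per cell cannot be told apart.

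Libraries of the 2 genotypes did not overlap for 5 of 8 genes in lung CD11b DCs, all higher in KO (Tfe3, Mitf, Tfec, Fnip2 and Gpnmb), where 13.6% of all genes were higher and 15.0% lower without overlap. In alveolar macrophages 5 of 8 were higher without overlap (Tfeb, Mitf, Fnip1, Fnip2 and Gpnmb), with 23.1% of all genes higher and 21.5% lower in this way. For spleen CD11b DCs 4 were higher without overlap (Tfe3, Flcn, Fnip2 and Gpnmb), with 24.5% of all genes higher and 23.5% lower. In spleen CD8a DCs 5 were lower (Tfeb, Mitf, Tfec, Flcn and Fnip1), with 23.6% of all genes lower, and Fnip2 was higher, with 23.1%. In inflammatory DCs Mitf alone was higher without overlap, with 9.83% of all genes higher and 11.1% lower.

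**Figure D3:**
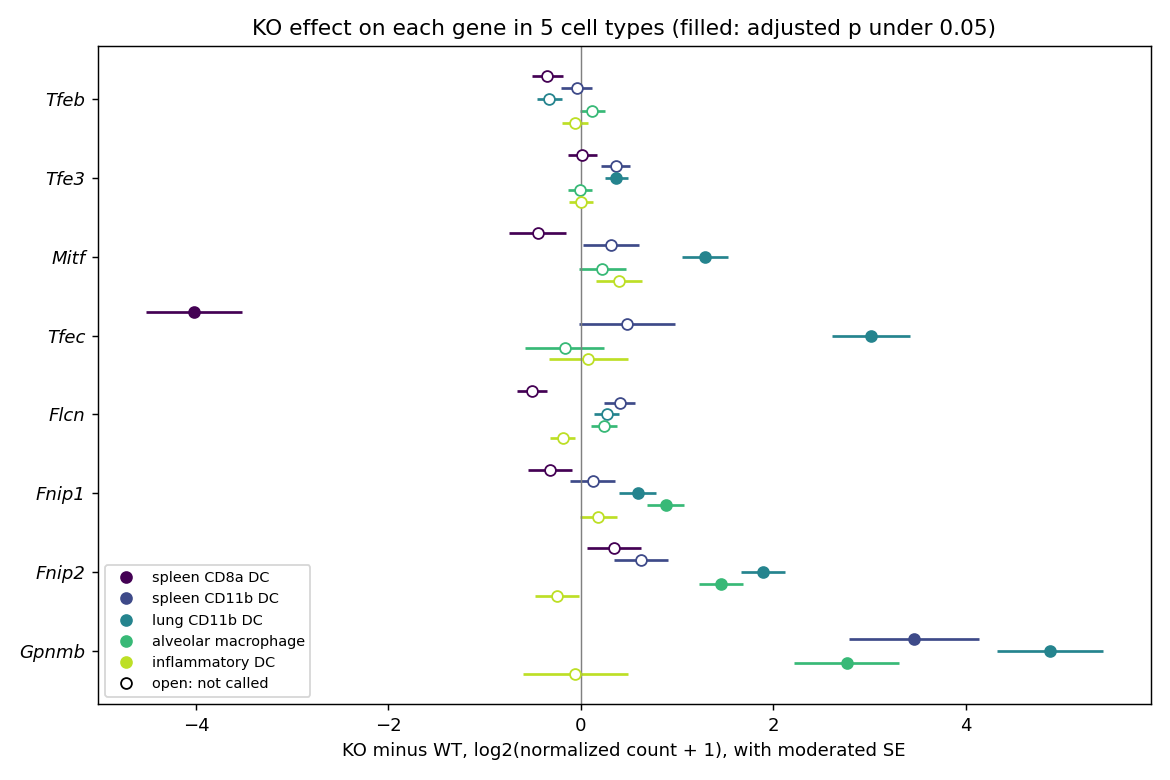
KO minus WT difference in log2(normalized count + 1) of each gene in 5 cell types, with the moderated standard error; filled points were called at an adjusted p under 0.05. Gpnmb lies at 4.88 in lung CD11b DCs and at -0.06 in inflammatory DCs (not drawn for spleen CD8a DCs, with too few reads), and Tfec lies on opposite sides of 0 in spleen CD8a and lung CD11b DCs.

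Gpnmb differed most between genotypes. In lung CD11b DCs WT libraries held 183.1, 253.8 and 200.7 and KO libraries 2755.6, 7409.0 and 11760.7. Every KO library was at least an order of magnitude above every WT library, and KO replicate 1 was the lowest of the KO libraries. The ratio of means was 34.4 and the log2 difference 4.88 ± 0.55 (adjusted p = 6.97e-07). In alveolar macrophages WT libraries held 4864.3, 4896.5 and 4766.1 and KO libraries 34980.2, 32012.4 and 31784.0, all close within a genotype. The ratio of means was 6.80 and the log2 difference 2.76 ± 0.55 (adjusted p = 0.00075). KO alveolar macrophages thus lay near the highest WT inflammatory DC library, and 2 of 3 KO lung CD11b DC libraries lay above all WT alveolar macrophages.

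Spleen CD11b DCs held 2.7 and 19.5 of Gpnmb in WT against 100.8 and 89.4 in KO. Both KO libraries lay above both WT libraries. From 26 and 180 pooled reads the ratio was 8.36 (95% exact interval 5.52 to 13.1, counting error only), and the log2 difference was 3.46 ± 0.67 (adjusted p = 0.00787). Leaving out WT replicate 1 ended this call (2.23, adjusted p = 0.13). Leaving out KO replicate 1 (3.38) or KO replicate 2 (3.55) did so too, at adjusted p = 0.0863 and 0.0826. In the same libraries 1 of 8 monocyte genes was higher in KO, Fcgr1 (1.90 ± 0.48), with list sums of 9221.8 and 13366.3 in WT against 11713.5 and 12271.3 in KO. The red pulp macrophage list had higher sums in KO without overlap (8848.5 and 11628.7 in WT, 14858.0 and 16368.9 in KO), with 1 of 12 genes called, Csf1r (0.87 ± 0.15). The part of either list was not tested. In spleen CD8a DCs Gpnmb had 4 reads in WT and 4 in KO, too few for a fold. In inflammatory DCs WT libraries held 10614.3, 32445.6 and 17193.5 and KO libraries 22465.0, 14825.2 and 15782.6. The KO libraries fell inside the WT range, and the difference was -0.06 ± 0.55 (95% interval -1.19 to 1.08, adjusted p = 0.995). The KO effect on Gpnmb in inflammatory DCs minus that in lung CD11b DCs was -4.93 ± 0.78 on the log2 scale (adjusted p = 0.000165), and minus that in alveolar macrophages it was -2.82 ± 0.78 (adjusted p = 0.0241). Of all genes 13.0% and 7.93% were called in these differences, which share libraries with each other and with the comparisons above. Sex went with genotype in alveolar macrophages and not in inflammatory DCs, so the second difference cannot be told apart from sex. For Mtor itself the inflammatory minus lung CD11b DC difference was -0.04 ± 0.31 (adjusted p = 0.96). Alveolar macrophages lost more Mtor than either. The ratio of KO to WT means of Mtor was 0.247 there, 0.599 in inflammatory DCs and 0.633 in lung CD11b DCs. The part of these Mtor levels was not tested.

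Fnip2 was the folliculin partner with the larger differences. Lung CD11b DCs held 202.6, 246.4 and 156.4 in WT and 473.8, 791.3 and 1075.2 in KO. KO replicate 1 was again the lowest KO library, and no KO library reached down to WT. The ratio of means was 3.87 and the log2 difference 1.89 ± 0.23 (adjusted p = 1.82e-06). In alveolar macrophages WT libraries held 575.6, 522.1 and 686.3 and KO libraries 1383.1, 1838.8 and 1681.8, without overlap, a difference of 1.46 ± 0.23 (adjusted p = 5.3e-05). The spleen CD11b DC values were 73.6 and 77.9 for WT against 119.1 and 115.6 for KO (0.63 ± 0.28, adjusted p = 0.346), and those of spleen CD8a DCs were 620.1 and 681.2 for WT against 871.2 and 786.6 for KO (0.35 ± 0.28, adjusted p = 0.609). Neither spleen comparison was called, although KO lay above WT in both. With a term for Y-linked reads the spleen CD11b DC difference was 1.70 and was called (adjusted p = 0.0452). In the spleen cells Y-linked reads went with genotype, so this term drew on differences within groups. These were widest among KO lung CD11b DCs (Y-linked sums of 1317.7, 0.8 and 1.3). The term therefore cannot part sex from genotype in spleen. In inflammatory DCs WT libraries held 1293.6, 2233.1 and 1319.8 and KO libraries 1398.1, 1434.1 and 1132.9, which overlapped (-0.25 ± 0.23, 95% interval -0.72 to 0.22, adjusted p = 0.751). The KO effect in inflammatory DCs minus that in lung CD11b DCs was -2.14 ± 0.32 (adjusted p = 0.000118), and minus that in alveolar macrophages -1.71 ± 0.32 (adjusted p = 0.00116). As for Gpnmb, the difference from alveolar macrophages cannot be told apart from sex.

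Fnip1 was higher in KO in both steady-state lung populations. In alveolar macrophages it held 846.3, 682.2 and 795.8 in WT against 1241.5, 1464.2 and 1585.9 in KO. The groups did not overlap, and the difference was 0.88 ± 0.19 (adjusted p = 0.00162). In lung CD11b DCs it held 758.3, 605.9 and 514.3 in WT and 676.3, 883.2 and 1355.2 in KO, where KO replicate 1 lay below WT replicate 1. The difference of 0.59 ± 0.19 was called (adjusted p = 0.024). The call ended when WT replicate 2 (0.58, adjusted p = 0.062), WT replicate 3 (0.46, adjusted p = 0.11) or, from the KO, replicate 3 (0.32, adjusted p = 0.196) was left out. Weighting the samples also ended it (0.46, adjusted p = 0.182). In the other 3 cell types the difference lay between -0.32 and 0.18 and was not called.

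Flcn itself, the core subunit, was not called in KO against WT in any of the 5 cell types. CD8a DCs of spleen held 417.1 and 476.4 in WT against 343.5 and 285.8 in KO (-0.51 ± 0.16, adjusted p = 0.0701). CD11b DCs of spleen held 612.8 and 443.5 in WT against 711.0 and 672.2 in KO (0.41 ± 0.16, adjusted p = 0.266). KO libraries lay below WT in the first and above WT in the second. The difference between these KO effects was itself called (-0.91 ± 0.23, adjusted p = 0.0284, in a comparison with 2.45% of all genes called). That call was lost in 5 of 8 fits that left out a library: CD8a WT replicate 2 (-0.82, adjusted p = 0.124), CD8a KO replicate 2 (-0.78, 0.159), CD11b WT replicate 2 (-0.68, 0.218), CD11b KO replicate 1 (-0.87, 0.118) and CD11b KO replicate 2 (-0.95, 0.0711). In the 3 lung populations Flcn differences were 0.27 ± 0.13 in CD11b DCs (95% interval 0.00 to 0.54), 0.24 ± 0.13 in alveolar macrophages (-0.03 to 0.51) and -0.19 ± 0.13 in inflammatory DCs (-0.46 to 0.08).

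Tfec moved in opposite directions in 2 DC types. Lung CD11b DCs held 11.9, 37.0 and 18.5 in WT and 64.9, 342.3 and 223.3 in KO. All KO libraries were above all WT libraries, with KO replicate 1 closest to them. The ratio of means was 9.35 and the log2 difference 3.02 ± 0.41 (adjusted p = 8.57e-06), still below the WT level of alveolar macrophages. In a fit of these libraries alone the difference was not called (3.02, adjusted p = 0.0729). Spleen CD8a DCs held 26.6 and 39.5 of Tfec in WT against 0.9 and 1.2 in KO, which was 1 read in each KO library. From 70 WT and 2 KO reads the WT level was 31.0 times the KO level (95% exact interval 8.26 to 261, counting error only), and the log2 difference was -4.02 ± 0.50 (adjusted p = 7.21e-06). With a term for Y-linked reads it was -2.15 (adjusted p = 0.0977), but as for Fnip2 that term cannot part sex from genotype in spleen. A fit of the spleen CD8a DC libraries alone did not call the difference either (-4.02, adjusted p = 0.134). Markers of red pulp macrophages, the iron-recycling macrophages of spleen, were lower in the same KO libraries for 12 of 12 genes. Their summed normalized counts were 33337.7 and 57413.9 in WT against 3181.3 and 3551.8 in KO, and none was at 0 in a whole group. Their part in the Tfec difference was not tested.

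Tfec in spleen CD11b DCs held 9.0 and 17.8 for WT against 16.0 and 20.4 for KO (0.48 ± 0.50, adjusted p = 0.821), with overlap. In alveolar macrophages Tfec held 820.0 to 915.1 in WT and 716.9 to 830.9 in KO (-0.17 ± 0.41), and in inflammatory DCs 933.0 to 1021.6 and 1003.6 to 1066.6 (0.08 ± 0.41). These overlapped and were not called. The KO effect on Tfec in lung CD11b DCs exceeded that in spleen CD11b DCs by 2.54 ± 0.65 (adjusted p = 0.012, with 12.5% of all genes called). Leaving out spleen WT replicate 2 (2.08, adjusted p = 0.0934) or spleen KO replicate 1 (2.37, adjusted p = 0.057) ended that call. The KO effect in alveolar macrophages minus that in lung CD11b DCs was -3.18 ± 0.58 (adjusted p = 0.000479, with 16.8% of all genes called), and that in inflammatory DCs minus that in lung CD11b DCs was -2.94 ± 0.58 (adjusted p = 0.00151).

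Mitf was higher in KO lung CD11b DCs, with 98.6, 104.7 and 133.8 in WT and 203.5, 403.0 and 250.3 in KO. KO replicate 2 was the highest, and the groups did not overlap. The difference was 1.29 ± 0.24 (adjusted p = 0.000358). In alveolar macrophages Mitf held 498.0, 472.4 and 491.1 in WT and 554.8, 560.9 and 592.0 in KO (0.22 ± 0.24, adjusted p = 0.638), and in inflammatory DCs 702.3, 845.6 and 642.4 in WT and 928.9, 977.7 and 954.4 in KO (0.39 ± 0.24, adjusted p = 0.535). KO was above WT without overlap in both, and neither was called. In a fit of the alveolar macrophage libraries alone their difference was called (0.22, adjusted p = 0.0175). In a fit of the lung CD11b DC libraries alone the call in those cells was lost (1.29, adjusted p = 0.0665). Spleen libraries held 22.0 to 52.7 in either genotype and gave no call.

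Tfe3 and Tfeb, the members best known as mTORC1 substrates, had the smallest differences of the 4 factors in lung CD11b DCs. Tfe3 in lung CD11b DCs held 731.3, 703.1 and 583.6 in WT and 880.7, 892.3 and 826.3 in KO, without overlap, a difference of 0.37 ± 0.12 (adjusted p = 0.0284). The call ended when WT replicate 3 was left out (0.27, adjusted p = 0.13), and likewise for KO replicate 1 (0.36, 0.0517) and KO replicate 2 (0.35, 0.0761). Weighting the samples (0.30, 0.26) and a term for Y-linked reads (0.34, 0.0638) ended it as well. In alveolar macrophages the Tfe3 difference was -0.01 ± 0.12 (95% interval -0.26 to 0.24) and in inflammatory DCs 0.00 ± 0.12 (-0.25 to 0.25). Among spleen CD11b DCs it was 0.36 ± 0.15 (adjusted p = 0.295), from 551.8 and 470.6 in WT to 634.3 and 679.0 in KO.

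Tfeb was the one factor of the 4 with no call in KO against WT. Lung CD11b DCs held 640.3, 760.2 and 794.9 in WT against 697.6, 430.1 and 651.6 in KO. The groups overlapped, with KO replicate 2 the lowest, and the difference was -0.33 ± 0.13 (adjusted p = 0.0699). It was called lower once WT replicate 1 (-0.42, adjusted p = 0.0391), KO replicate 1 (-0.46, 0.0117) or KO replicate 3 (-0.41, 0.0439) was left out, and with the Y-linked term (-0.48, 0.00682). Without KO replicate 2 the difference shrank to -0.11 (adjusted p = 0.493). In alveolar macrophages it was 0.12 ± 0.13 (95% interval -0.15 to 0.39) and in inflammatory DCs -0.06 ± 0.13 (-0.33 to 0.21).

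The 3 KO libraries of lung CD11b DCs differed among themselves. KO replicate 3 held the lowest Mtor (169.3) and the highest Gpnmb, Fnip1 and Fnip2 of the 3, whereas KO replicate 2, with Mtor at 316.0, held the highest Mitf and Tfec. KO replicates 2 and 3 and WT replicate 3 also had fewer genes above 0 (12992 to 13173) than the other 3 libraries of this cell type (13876 to 14407). Markers of cell types were also called in this comparison, where 12.0% of all genes were higher and 14.0% lower. Of 8 monocyte genes 3 were higher in KO (among them Ly6c2 by 5.25 ± 0.44 and Fcgr1 by 2.80 ± 0.39 on the log2 scale), with sums of 65930.4 to 74363.0 in WT and 68731.1 to 99615.1 in KO. Of 8 CD11b-type DC genes (the cDC2 list) 2 were lower (Mgl2 by -2.06 ± 0.27 and Cd209a by -2.58 ± 0.37), with sums of 61276.8 to 68120.4 in WT and 23472.2 to 33675.2 in KO. Of 8 general DC genes 1 was higher and 3 were lower, among them Flt3 (-2.32 ± 0.36). Alveolar macrophage markers summed to 2220.9 to 4926.2 in WT and 2726.5 to 4515.4 in KO, with 1 of 11 higher and 5 lower. Red pulp macrophage markers had higher sums in KO without overlap (24357.7 to 28163.6 in WT and 29804.5 to 38936.0 in KO), with 3 of 12 genes higher and 2 lower, among them Siglec1 (4.05 ± 0.59) and Mertk (2.02 ± 0.37). None of these lists had a gene at 0 in a whole group, and their part in the differences was not tested. In alveolar macrophages, where 10.5% of all genes were higher and 6.39% lower, 2 of the 11 alveolar macrophage markers were called lower. Their sums were 307163.7 to 316899.7 in WT and 181084.7 to 201007.3 in KO. There 4 of 8 monocyte genes were higher (Ly6c2 by 4.00 ± 0.44 among them) while the list's sum was lower, at 247615.5 to 250148.7 in WT and 181678.9 to 198048.5 in KO. Of 6 T cell genes 4 were higher (Cd3d by 3.13 ± 0.56 among them), with sums of 3802.1 to 3957.2 in WT and 2630.9 to 3032.9 in KO. Of the 12 red pulp macrophage genes 5 were higher and 1 lower, with sums of 18012.8 to 18911.7 and 15238.5 to 17941.5. General DC genes were higher for 3 of 8 and lower for none, with sums of 13479.8 to 14085.9 in WT and 21019.1 to 22054.7 in KO. The cDC2 list had 3 of 8 genes higher (Itgam by 3.96 ± 0.25 and Irf4 by 1.65 ± 0.33 among them) while its sum was lower, at 28275.3 to 28655.2 in WT and 24655.4 to 26673.5 in KO. In inflammatory DCs 1.45% of all genes were higher and 1.92% lower. There 4 of 11 alveolar macrophage genes and 2 of 6 T cell genes were lower, with none higher. The cDC2 list had 1 of 8 genes higher and 2 lower, and the general DC list 2 of 8 higher and 5 lower. No monocyte gene was called, but the sums of that list did not overlap (165295.3 to 203409.4 in WT, 234301.0 to 305025.2 in KO). The part of these markers was likewise not tested.

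Other genes of the pathway were counted from lists, several of which share genes such as Cd63, Ctsb, Ctsd, Clcn7 and Atp6v0d2. Beside these counts stand the shares over all genes, 12.0% higher and 14.0% lower in lung CD11b DCs and 10.5% higher and 6.39% lower in alveolar macrophages. In the list of mTORC1 and its Rag inputs, which includes Mtor, 5 of 28 genes were higher and 6 lower in KO lung CD11b DCs (median -0.26). Slc38a9, a lysosomal arginine sensor, fell by 0.83 ± 0.16, Tsc2, a brake on mTORC1, fell by 0.66 ± 0.13, and Lamtor3, a part of the Ragulator anchor, rose by 0.63 ± 0.13. In alveolar macrophages 1 was higher and 5 lower (median -0.06), among them Rragb (-1.58 ± 0.44) and Rraga (-0.44 ± 0.13), which encode Rag GTPases. In each spleen DC type 1 gene was called, Mtor, and in inflammatory DCs 0 of 28. Of 21 tested genes that place TFEB and TFE3 in the cell (calcineurin, 14-3-3 proteins, AMPK and kinases), 4 were higher and 3 lower in lung CD11b DCs, where 26.1% of all genes were called, and 4 were lower in alveolar macrophages. Ppp3ca, a catalytic subunit of calcineurin, which dephosphorylates TFEB, fell in both (by 0.51 ± 0.09 and by 0.46 ± 0.09).

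Lysosome genes that carry the CLEAR element known to bind TFEB were counted in 3 lists. Lung CD11b DCs had 12 of 13 tested proton pump subunits higher in KO and none lower (median 0.68, against -0.05 over all genes), with Atp6v1c1 up by 1.51 ± 0.17 and Atp6v1b2 by 1.02 ± 0.12. Of 22 lysosomal hydrolases 12 were higher and 1 lower (median 0.36), among them Ctsd, the protease cathepsin D (1.94 ± 0.26), Gla, the galactosidase lost in Fabry disease (1.90 ± 0.25), and Galns (1.84 ± 0.23). Of 17 membrane and autophagy genes 8 were higher and 1 lower (median 0.32), led by Cd63 (1.95 ± 0.19) and the chloride transporter Clcn7 (1.67 ± 0.19). In alveolar macrophages the counts were 5 of 13 pump subunits higher (median 0.30), 5 hydrolases higher and 1 lower (0.18), and 2 membrane and autophagy genes higher and 2 lower (0.16). Cd63 there rose by 3.03 ± 0.19 and Atp6v0a1 by 1.07 ± 0.14, while Map1lc3b, which encodes the autophagosome protein LC3B, fell by 0.24 ± 0.08.

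The other 3 cell types differed in these counts. In spleen CD8a DCs, where 3.63% of all genes were lower and 1.50% higher, 6 of 22 hydrolases, 2 of 13 pump subunits and 2 of 17 membrane and autophagy genes were lower and 1 pump subunit, Atp6v0d2, was higher (2.06 ± 0.40). There Ctsd fell by 2.71 ± 0.32 and Lamp1 fell by 1.22 ± 0.17, in the same libraries in which the 12 red pulp macrophage markers were lower. Of these lists in spleen CD11b DCs Atp6v0a1 alone was called (0.77 ± 0.17, adjusted p = 0.017). In inflammatory DCs 0 genes of the 3 lists were called.

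Of 11 tested genes known as MITF targets in osteoclasts and macrophages, 7 were higher in KO lung CD11b DCs (median 0.55) and 3 in alveolar macrophages (0.04), with none lower in either. Ctsk, the bone protease cathepsin K, rose by 2.87 ± 0.47 and by 1.57 ± 0.47, and Met, the hepatocyte growth factor receptor, by 2.05 ± 0.37 and by 2.72 ± 0.37. Bcl2, a survival factor, rose by 3.13 ± 0.23 in alveolar macrophages. Acp5, the osteoclast acid phosphatase, was called lower in spleen CD8a DCs (-1.87 ± 0.18), in spleen CD11b DCs (-0.88 ± 0.18) and in the mean effect (-0.51 ± 0.07). No gene of this list was called in inflammatory DCs. Of 13 genes that mark lipid-handling macrophages together with Gpnmb, 10 were higher in KO lung CD11b DCs (median 1.09) and 9 in alveolar macrophages (1.17), again with none lower. Spp1 (osteopontin) rose by 4.85 ± 0.42, Fabp5 by 2.48 ± 0.23 and Lgals3 (galectin 3) by 2.06 ± 0.17 in lung CD11b DCs. Apoe rose by 2.45 ± 0.21 and the scavenger receptor Cd36 by 1.96 ± 0.20 in alveolar macrophages. In spleen CD8a DCs 6 of the 13 were lower (median -0.84), with Lpl, lipoprotein lipase, down by -4.33 ± 0.26. In inflammatory DCs Fabp4 alone was called, lower by -2.65 ± 0.38.

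**Figure D4:**
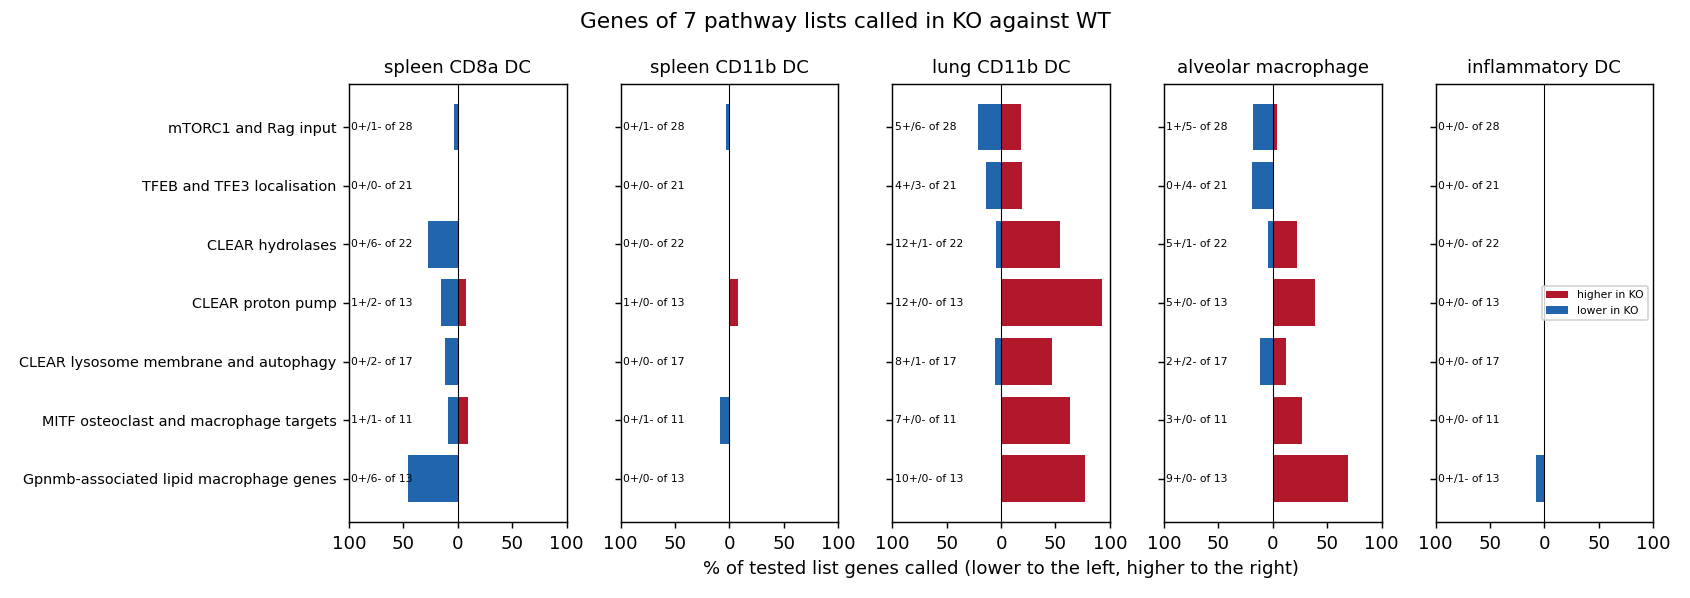
Share of tested genes of 7 pathway lists called higher (red, to the right) or lower (blue, to the left) in KO against WT in each cell type; the figures in each row give the counts. The proton pump row reaches 12 of 13 in lung CD11b DCs, and inflammatory DCs show 1 called gene in all.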

How the data were processed

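The submitters' processing notes name STAR 2.3.1s for alignment, mm10 as the genome, HTSeq for counting and DESeq2 1.10.1 for normalization. For the annotation, the strand setting and the HTSeq version, the sources used here give nothing. The deposited table holds normalized counts, a signal per symbol: reads over a size factor. Spacing of the low values gave back these size factors, and multiplying by them made 100% of values whole within 1e-06. Genes with a normalized count of at least 10 in at least 2 libraries were tested. limma 3.58.1 (R 4.3.3) was fitted to log2(normalized count + 1) with 10 group means over 26 libraries and a mean-variance trend. The Benjamini-Hochberg adjustment covered all 13311 genes and calls were made at 0.05. Differences are on this log2 scale, with moderated standard errors and 95% moderated intervals, and understate changes of low genes. The script was tested on simulated data. Alternatives were pseudocounts of 0.25 and 8, no filter, TMM scaling, sample weights, a Y-linked covariate, edgeR 4.0.16 and DESeq2 1.42.0 on recovered reads, the compared groups alone, and each library left out. The members and lists were chosen with earlier results of these data known. Named are all 8 genes, the 3 genes most like each, and up to 3 called genes per list. Exceptions are single markers named beside a result, and the shared Fnip1 and Fnip2 palindrome, looked for after their windows were seen. Replicates are numbered in accession order, and these numbers were not used to pair libraries. Nothing in the labels says that libraries came from separate animals, so p-values measure only the spread between these libraries. Reads shared with overlapping or similar genes could not be reassigned.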

Additional observations from a re-analysis of the deposited data

Results flagged for a closer look

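For 11 differences between KO effects, the effect in 1 cell type differed from that in another by the test of the difference itself. These differences share libraries: those with lung CD11b DCs share that cell type's libraries, those with alveolar macrophages or inflammatory DCs likewise. Sex and genotype could not be told apart in spleen DCs and alveolar macrophages. Differences that set these cells against lung CD11b or inflammatory DCs therefore cannot be told apart from sex. Spleen CD8a against CD11b DCs gave -4.50 ± 0.71 for Tfec (adjusted p = 0.000296) and -0.91 ± 0.23 for Flcn (adjusted p = 0.0284), 2 of 8 genes, with 2.45% of all genes called. Lung against spleen CD11b DCs gave 2.54 ± 0.65 for Tfec and 1.27 ± 0.36 for Fnip2 (adjusted p = 0.0234), 2 of 8 genes, with 12.5% of all genes called. The Fnip2 call was lost without spleen CD11b WT replicate 1 (1.31, adjusted p = 0.0515), WT replicate 2 (1.23, 0.0872), KO replicate 1 (1.29, 0.0662) or KO replicate 2 (1.25, 0.0815), or lung KO replicate 3 (1.00, 0.0573). Alveolar macrophages against lung CD11b DCs gave -3.18 ± 0.58 for Tfec and -1.07 ± 0.34 for Mitf (adjusted p = 0.0338), 2 of 8 genes, with 16.8% of all genes called. The Mitf call was lost in 9 of 12 fits that left out a library, with adjusted p up to 0.0997 without lung KO replicate 2. Inflammatory against lung CD11b DCs gave -2.94 ± 0.58 for Tfec, -2.14 ± 0.32 for Fnip2 and -4.93 ± 0.78 for Gpnmb, 3 of 8 genes, with 13.0% of all genes called. Inflammatory DCs against alveolar macrophages gave -1.71 ± 0.32 for Fnip2 and -2.82 ± 0.78 for Gpnmb, 2 of 8 genes, with 7.93% of all genes called. The last Gpnmb call was lost without inflammatory WT replicate 2 (-2.40, adjusted p = 0.0798), KO replicate 2 (-2.71, 0.0577) or KO replicate 3 (-2.75, 0.0541). For Gpnmb the difference between alveolar macrophages and lung CD11b DCs was -2.11 ± 0.78 and was not called (adjusted p = 0.065), although edgeR (adjusted p = 0.00429) and DESeq2 (adjusted p = 0.00787) called it.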

How the results depend on the processing

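No alternative reversed the direction of a gene result that was called in any setting: over 40 such results, 802 alternatives gave 689 with the same outcome, 82 that lost a call and 31 that gained it. Of the 40 results 26 were called in the main fit. The 689 therefore also include alternatives in which an uncalled result stayed uncalled, and are not the number of calls that held. With the groups compared alone, which leaves few residual degrees of freedom, members called fell to 0 in spleen CD8a DCs, 0 in spleen CD11b DCs, 2 in lung CD11b DCs, 0 for the difference between the spleen DCs and 0 for that between lung and spleen CD11b DCs. Over all genes that fit called 0 in spleen CD8a, spleen CD11b and inflammatory DCs, 856 in lung CD11b DCs and 3863 in alveolar macrophages, against 683, 202, 448, 3471 and 2247. The calls lost in lung CD11b DCs were those on Tfe3, Mitf, Tfec and Fnip1. Fitting the compared groups alone also gained calls, such as Mitf in alveolar macrophages. The Y-linked term gave 0 members in spleen CD8a DCs, 2 in spleen CD11b DCs, 0 for lung against spleen CD11b DCs and 1 for alveolar macrophages against lung CD11b DCs, with 246 and 65 genes called in the spleen DCs. In the spleen DCs and alveolar macrophages, where Y-linked reads went with genotype, that term cannot part sex from genotype. For inflammatory DCs against alveolar macrophages a pseudocount of 0.25 gave 1 and sample weights 4; these weights called 652 genes in spleen CD11b DCs, 1897 in lung CD11b DCs, 4509 for alveolar macrophages and 843 in inflammatory DCs. Leaving out 1 library at a time gave 1 to 1 members in spleen CD8a DCs, 0 to 1 in spleen CD11b DCs, 4 to 7 in lung CD11b DCs, 3 to 3 among alveolar macrophages, 0 to 0 in inflammatory DCs, 2 to 4 for the mean effect and 8 to 8 among WT cell types. For the 5 differences, in the order given above, it gave 1 to 3, 0 to 3, 1 to 4, 3 to 4 and 1 to 2. For the mean effect, the call on Mitf (0.35 ± 0.12, adjusted p = 0.0397) was lost in 19 of 26 such fits and that on Fnip1 (0.29 ± 0.09, adjusted p = 0.0311) in 9, while those on Fnip2 (0.81 ± 0.11) and Gpnmb (2.28 ± 0.27) held in all 26. DESeq2 called 362 genes in spleen CD11b DCs. The causes of these changes were not tested. No paired analysis was possible because the labels give no replicate number shared between groups.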

Other observations

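The genes whose pattern was most like each member were found by Pearson's r of log2(normalized count + 1) over the 26 libraries, among 9622 genes with a mean of at least 50. The libraries share cell types, so these values describe the differences between cell types as much as those between genotypes. Tfec was most like Ctsd (r = 0.982), the lysosomal protease cathepsin D, Ftl1 (0.981), the ferritin light chain, and Tmem86a (0.977). Flcn was most like Neu1 (0.957), a lysosomal sialidase, Gpx4 (0.957), a glutathione peroxidase, and Tpp1 (0.954), a lysosomal peptidase. Fnip1 was most like Cd63 (0.912), Fabp5 (0.902) and Lgals8 (0.902), a galectin. Mitf was most like Vat1 (0.978), Slc38a7 (0.977), a lysosomal glutamine exporter, and F7 (0.974), coagulation factor VII. Gpnmb was most like Dhrs3 (0.980), B4galt1 (0.978) and Scamp1 (0.972), and Fnip2 most like Nek6 (0.964), Txn1 (0.945), thioredoxin, and Nudt9 (0.944). Tfe3 was most like Pgap2 (0.912), Pop4 (0.907) and Prkcd (0.893), and Tfeb most like Scel (0.898), Cdc42ep2 (0.882) and Nlrc4 (0.862), an inflammasome gene. Among the members, Mitf went with Tfec (r = 0.94), Gpnmb (0.93) and Flcn (0.90), whereas Tfeb and Tfe3 had an r of 0.00.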
